A study of Homo sapiens with 12 samples.

Results

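CR1 and RTE elements are the remains of LINE retrotransposons that were active long before the primates arose, and they are kept in the human genome as short, diverged and immobile copies. Like other LINEs, their ancestors copied themselves through an RNA intermediate with a reverse transcriptase of their own. Because most surviving copies sit inside genes, RNA that carries them is usually part of a host transcript, as retained intron or as part of an exon. ZC3H18 is a nuclear zinc finger protein that links capped RNA to the machinery of RNA surveillance.

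The assay was PAR-CLIP, which sequences the RNA that crosslinks to a protein in cells fed 4-thiouridine, and the proteins were pulled down through a V5 tag. The cells were A375, an established human melanoma line, and all received a construct by transient transfection, with 4-thiouridine given 24 h later. The constructs were Clover, a fluorescent protein that served as control, Z18fl (full-length ZC3H18), Z18trunc (truncated ZC3H18 that lacks the C-terminal region needed to recruit RNA surveillance factors) and Z18truncZnFmut (the truncated protein with aromatic residues of its zinc finger mutated). Each had 3 libraries, 12 in all, of 1 cell line, and the tagged proteins were expressed from a plasmid beside the cell's own ZC3H18.

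CR1 and RTE elements were taken by their annotation as class LINE with family CR1 or a family name that starts with RTE, and only reads on the strand of the element were counted. In at least 1 library 21841 such elements had a count, of 1509971 elements of the 6 transposable element classes. Of these, 16104 were CR1, 3873 were RTE-X and 1864 were RTE-BovB. Their median length was 199 bases and their median divergence from the consensus was 32.1%, against 527 bases and 20.3% for listed L1 elements. The copies were 61.0% A or T at the median, and 47.4% of them lay in introns of a gene on the same strand, 3.84% in exons, 23.4% antisense to a gene and 25.4% between genes.

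Libraries held 16683132 to 25686948 aligned fragments, of which 6468 to 22371 were assigned to CR1 and RTE elements. The library Z18truncZnFmut replicate 3 stood apart. It listed 11838 CR1 and RTE elements, against 1646 to 4786 in the other 11 libraries, and 82.4% of its CR1 and RTE counts lay in elements with fewer than 10 counts, against 51.2% to 65.4% elsewhere. Values of Z18truncZnFmut include it unless stated, and many sums are therefore also given without it or by library. In all libraries most elements had too few counts to be tested singly, so the sums and the single elements are described in turn.

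The sequences of 4 elements are shown from hg38, 5′ to 3′ on the strand of the element. They lay in introns or coding exons. None was from a 3′ untranslated region, where 34 of the 101 copies tested in Z18fl against Clover lay, or from a place antisense to or between genes. The L3 copy in MTSS2 lay in an intron and had the largest log2 fold change with Z18fl among called copies with a mean of at least 20 counts. The L3b copy in NECTIN3 lay in an intron and was lower with Z18fl than with Clover or Z18trunc. The copies annotated as MamRTE1 in HSPA8 and as L3 in RELA lay in coding exons and were among the elements with the highest counts. Their labels rest on the repeat annotation alone, at 35.1% and 31.2% divergence over 123 and 77 bases. Whether this coding sequence derives from these elements was not tested. Capitals mark bases in exons of the canonical transcript of the host gene.
L3 in MTSS2, chr16:70680582-70680667, minus strand: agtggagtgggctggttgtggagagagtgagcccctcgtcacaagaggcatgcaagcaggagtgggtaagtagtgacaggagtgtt
L3b in NECTIN3, chr3:111195288-111195415, plus strand: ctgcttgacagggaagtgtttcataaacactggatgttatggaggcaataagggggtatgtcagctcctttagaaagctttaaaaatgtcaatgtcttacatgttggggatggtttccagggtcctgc
MamRTE1 in HSPA8, chr11:123060106-123060228, minus strand: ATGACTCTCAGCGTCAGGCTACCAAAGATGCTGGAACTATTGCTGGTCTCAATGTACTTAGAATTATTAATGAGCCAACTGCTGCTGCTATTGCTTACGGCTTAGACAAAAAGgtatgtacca
L3 in RELA, chr11:65654647-65654723, minus strand: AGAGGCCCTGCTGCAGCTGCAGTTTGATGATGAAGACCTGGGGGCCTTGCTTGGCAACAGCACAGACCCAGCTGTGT
In the HSPA8 element 113 of 123 bases were exonic, and in the RELA element all 77 were.

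The first question was whether RNA from CR1 and RTE elements was recovered with ZC3H18 more than with Clover. Summed over all elements, and scaled to CPM (counts-per-million, by the aligned fragments of each library), the level in Clover libraries was 425, 378 and 378. It was 515, 513 and 528 with Z18fl, 466, 487 and 546 with Z18trunc, and 449, 474 and 924 with Z18truncZnFmut. No ZC3H18 library was as low as any of the Clover libraries, and the constructs overlapped each other. The mean was 394 ± 27.2 (SD, n = 3) for Clover, against 519 ± 7.93 for Z18fl and 499.9 ± 41.3 for Z18trunc. Z18truncZnFmut had a mean of 616 ± 267, or 462 without replicate 3. The two-sided exact permutation test gave p = 0.1 for each construct against Clover, the smallest value that 3 libraries against 3 can give, and 0.226 after adjustment over the 70 tests of this kind.

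Most of the difference with Z18fl lay in introns. Intronic CR1 and RTE elements had 167, 138 and 139 CPM with Clover, 257, 243 and 265 with Z18fl, 209, 233 and 256 with Z18trunc, and 197, 229 and 361 with Z18truncZnFmut. No construct overlapped Clover, and on the log2 scale the means were higher than in Clover by 0.79, 0.65 and 0.83, the last being 0.53 without Z18truncZnFmut replicate 3. Intronic elements of other families were higher too. In Z18fl, Z18trunc and Z18truncZnFmut, L1 was higher by 1.31, 1.53 and 1.30, L2 by 0.50, 0.43 and 0.73, and MIR by 0.72, 0.54 and 0.64. Without Z18truncZnFmut replicate 3 the last values were 1.10, 0.27 and 0.39. Exonic CR1 and RTE elements had 180, 168 and 176 CPM in Clover and 171, 186 and 179 in Z18fl, which overlapped, and the log2 difference of the means was 0.03. For Z18trunc and Z18truncZnFmut the exonic difference was -0.08 and -0.13, the last being -0.08 without replicate 3.

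As a share of the CR1 and RTE counts, introns held 37.5% ± 1.53 with Clover, 49.1% ± 1.59 with Z18fl and 46.4% ± 1.52 with Z18trunc (SD, n = 3 each), without overlap (exact permutation p = 0.1 each, adjusted 0.226). In Z18truncZnFmut the intron share was 43.7% ± 4.61 and overlapped Clover, and it was 46.1% without replicate 3, which did not. Exons held 44.4% ± 2.19 in Clover and 34.4% ± 1.59 in Z18fl. In Z18fl, elements antisense to genes or between genes changed less than intronic ones, with means higher than in Clover by 0.31 and 0.20 on the log2 scale. In Z18trunc the means were higher by 0.56 and 0.47, with 64.8 and 67.9 CPM in replicate 3 and at most 39.7 and 47.6 in replicates 1 and 2. In Z18truncZnFmut they were higher by 1.53 and 1.36, or by 0.31 and 0.15 without replicate 3. Z18truncZnFmut replicate 3 had 201 CPM in elements antisense to genes and 214 between genes, against at most 64.8 and 67.9 in the other 11 libraries.

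**Figure D1:**
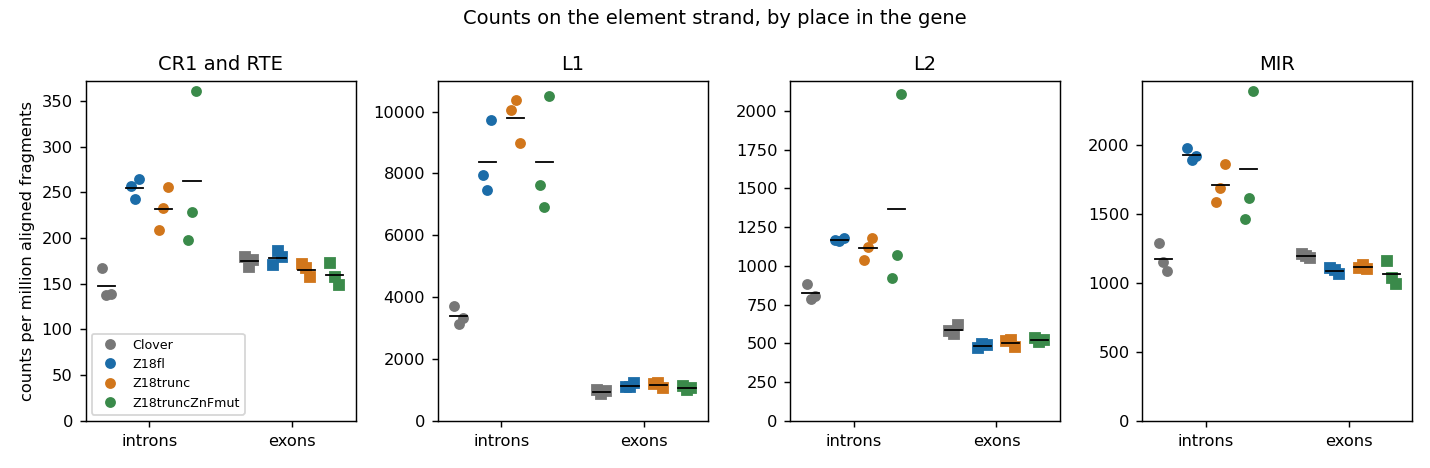
CPM, counts scaled by the aligned fragments of each library (vertical axes, linear, each panel with its own range) of CR1 and RTE, L1, L2 and MIR elements in introns (circles) and exons (squares) of genes on the same strand, with a point for each library and a bar for each group mean. Intronic CR1 and RTE elements lie at 138 to 167 in Clover and at 197 to 361 in the ZC3H18 libraries. In introns every ZC3H18 library lies above Clover for L1, L2 and MIR as well. Exonic CR1 and RTE elements overlap between the groups. In exons every ZC3H18 library lies above Clover for L1 and below Clover for L2 and MIR.

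L1, the LINE family with young and active members, was higher by more. The log2 ratio of CR1 and RTE counts to L1 counts was -4.26 ± 0.03 with Clover, -4.82 ± 0.17 with Z18fl, -5.15 ± 0.16 with Z18trunc, and -4.93 ± 0.12 with Z18truncZnFmut (SD, n = 3 each), and no construct overlapped Clover. The differences from Clover were -0.56, -0.89 and -0.67 (exact permutation p = 0.1 each, adjusted 0.226), the last being -0.65 without replicate 3. Among intronic elements alone, the ratio to L1 was lower than in Clover by similar amounts, with differences of -0.51, -0.88 and -0.50. The last was -0.58 without replicate 3. Z18trunc lay below Z18fl by 0.33 in the ratio over all elements, but 1 library of each overlapped (exact permutation p = 0.2).

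Against L2 and MIR, the other families of old diverged repeats, CR1 and RTE counts moved less. The log2 ratio to MIR was -2.87 ± 0.04 in Clover and -2.81 ± 0.04 in Z18fl and the groups overlapped (exact permutation p = 0.2, adjusted 0.318). In Z18trunc the ratio to MIR was -2.81, higher by 0.07 without overlap (exact permutation p = 0.1, adjusted 0.226). The ratio to L2 was higher than with Clover by 0.21 with Z18fl and by 0.11 with Z18trunc, also without overlap. When reads on either strand were counted, the difference in the ratio to MIR in Z18trunc turned to -0.05. Those in the ratio to L2 turned to -0.12 in Z18fl and -0.17 in Z18trunc. On the element strand, Z18truncZnFmut was higher than Clover in the ratio to MIR by 0.13, or 0.07 without replicate 3, without overlap. Its ratio to L2 differed by -0.03 with overlap, or by 0.12 without overlap when replicate 3 was left out. Among intronic elements alone the ratio to L2 was higher by 0.29 with Z18fl and 0.22 with Z18trunc, without overlap.

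Base composition of the recovered elements was nearly level. Weighted by counts, the T content of CR1 and RTE elements was 25.3% ± 0.165 with Clover, 25.4% ± 0.153 with Z18fl and 25.6% ± 0.232 with Z18trunc (SD, n = 3), with overlap in each case (exact permutation p = 0.8 and 0.3). The AT content was 55.6% in Clover and 56.0% in Z18fl, again with overlap. Z18truncZnFmut replicate 3 had 59.2% AT, and the other 11 libraries had 55.3% to 56.8%. The share of CR1 and RTE reads that lay on the strand of the element was 48.3% ± 0.59 with Clover, 53.2% ± 0.55 with Z18fl, 51.8% ± 0.58 with Z18trunc, and 51.3% ± 1.81 with Z18truncZnFmut. Without replicate 3 the Z18truncZnFmut share was 52.3%. The strand share was higher than in Clover in every library of each construct, and higher in every Z18fl library than in every Z18trunc library (exact permutation p = 0.1 for each, adjusted 0.226).

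Counts were then summed by subfamily, which gave 27 CR1 and RTE subfamilies. L3, the most numerous CR1 subfamily, held 59.0% of all CR1 and RTE counts, MamRTE1, the only RTE-BovB subfamily, held 14.1%, and L3b held 8.52%. The RTE-X subfamilies L4_A_Mam, L4_C_Mam and L4_B_Mam held 3.81%, 2.32% and 1.71%, and CR1_Mam held 3.46%. Every one of the remaining subfamilies held less than Plat_L3, at 2.87%. RTE-X copies were the most T-rich of the families, with a median T content of 34.0% against 26.6% for CR1 and 26.0% for RTE-BovB.

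L3 had 228 ± 12.2 CPM with Clover, 313 ± 9.04 with Z18fl, 302 ± 21.2 with Z18trunc and 354 ± 129 with Z18truncZnFmut. In Z18truncZnFmut replicates 1, 2 and 3 the L3 level was 273, 286 and 503 CPM. MamRTE1 had 68.0 ± 5.92 with Clover, 74.5 ± 7.28 with Z18fl, 69.2 ± 2.77 with Z18trunc, and 77.2 ± 20.1 with Z18truncZnFmut (SD, n = 3 each). L3 was higher with each construct per aligned fragment, without overlap. The log2 ratio of RTE to CR1 counts was -1.71 ± 0.06 with Clover, -1.91 ± 0.15 with Z18fl and -1.90 ± 0.03 with Z18trunc, without overlap (exact permutation p = 0.1, adjusted 0.226). Z18truncZnFmut lay at -1.76 ± 0.28, or -1.92 without replicate 3.

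The level of MamRTE1 rested in good part on 1 host gene, ZKSCAN1, a zinc finger transcription factor with 4 MamRTE1 copies in its 3′ untranslated region. These copies held 40.8% ± 0.397 of the MamRTE1 counts with Clover, 26.3% ± 1.38 with Z18fl and 28.9% ± 3.86 with Z18trunc (SD, n = 3 each). With Z18truncZnFmut they held 31.6% ± 8.25, at 37.2% and 35.5% in replicates 1 and 2 and 22.2% in replicate 3. Their sum was 27.8 ± 2.58 CPM with Clover, 19.6 ± 2.62 with Z18fl, 19.98 ± 2.83 with Z18trunc and 23.3 ± 0.944 with Z18truncZnFmut. It was lower than in Clover in every library of each construct. MamRTE1 outside ZKSCAN1 had 40.2 ± 3.35 CPM with Clover, 54.9 ± 4.88 with Z18fl, 49.2 ± 3.16 with Z18trunc, and 53.8 ± 21.1 with Z18truncZnFmut. The Z18truncZnFmut libraries lay at 40.6, 42.8 and 78.1 CPM and overlapped Clover. On the log2 scale the means outside ZKSCAN1 were higher than in Clover by 0.45 in Z18fl and 0.29 in Z18trunc, without overlap, beside 0.46 and 0.41 for L3. Without the ZKSCAN1 copies the log2 ratio of RTE to CR1 counts was -2.23 ± 0.06 with Clover, -2.20 ± 0.14 with Z18fl and -2.21 ± 0.07 with Z18trunc, and the groups overlapped. These copies were left out after their values were seen.

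Across all subfamilies edgeR's quasi-likelihood test was run after TMM scaling, which sets changes relative to the bulk of all transposable elements. Of the 17 CR1 and RTE subfamilies tested in Z18fl against Clover, 2 were lower and 0 higher, beside 20.1% of all 915 subfamilies lower and 20.1% higher. These were MamRTE1, with a log2 fold change of -0.34 (SE 0.08, edgeR adjusted p = 0.00228), and CR1_Mam, with -0.34 (SE 0.09, adjusted p = 0.0052). In Z18trunc MamRTE1 was again lower (-0.46, SE 0.10, edgeR adjusted p = 0.00197), as 1 of 19 tested, beside 11.9% of all subfamilies. L3 did not pass the test, at -0.01 in Z18fl and -0.09 in Z18trunc. With the copies in ZKSCAN1 left out, MamRTE1 was not called, at -0.02 in Z18fl (edgeR adjusted p = 0.848) and -0.20 in Z18trunc (adjusted p = 0.139). With all 12 libraries in a single fit no CR1 or RTE subfamily was lower in either construct, and MamRTE1 had an adjusted p of 0.285 in Z18fl and 0.184 in Z18trunc.

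In Z18truncZnFmut against Clover no CR1 or RTE subfamily was called, beside 0% of all subfamilies lower and 1.3% higher. Without its replicate 3, MamRTE1 was lower, with a log2 fold change of -0.39 (edgeR adjusted p = 0.00146), and so was CR1_Mam, with -0.40 (adjusted p = 0.0202). None was called in Z18trunc against Z18fl or in Z18truncZnFmut against Z18trunc, where 2.43% and 0% of all subfamilies were lower and 1.48% and 0% higher. In these 3 comparisons 4 of 18, 2 of 21 and 2 of 20 subfamilies had an unadjusted p under 0.05 in edgeR, and DESeq2 called 0. Over all subfamilies 171 of 921, 181 of 948 and 49 of 957 had an unadjusted p under 0.05.

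The direction of the subfamilies depended on the scaling. With library sizes set to aligned fragments instead of TMM, 11 of 17 subfamilies were higher in Z18fl and 7 of 19 in Z18trunc, and none was lower. Over all subfamilies 494 of 915 were then higher and 38 lower in Z18fl, and 418 of 925 higher and 9 lower in Z18trunc. L3 was then higher by 0.46 in Z18fl (edgeR adjusted p = 8.92e-05) and by 0.41 in Z18trunc (adjusted p = 0.000289). L4_B_Mam was higher by 0.70 and 0.82 (adjusted p = 0.00169 and 0.00378) and X7A_LINE by 0.83 and 0.87 (adjusted p = 0.0111 and 0.0181). MamRTE1 turned to 0.13 and 0.03 and CR1_Mam to 0.13 and 0.18, and neither was called. Without its copies in ZKSCAN1, MamRTE1 was higher by aligned fragments in Z18fl, by 0.45 (edgeR adjusted p = 0.00118), and in Z18trunc, by 0.29 (adjusted p = 0.0314).

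**Figure D2:**
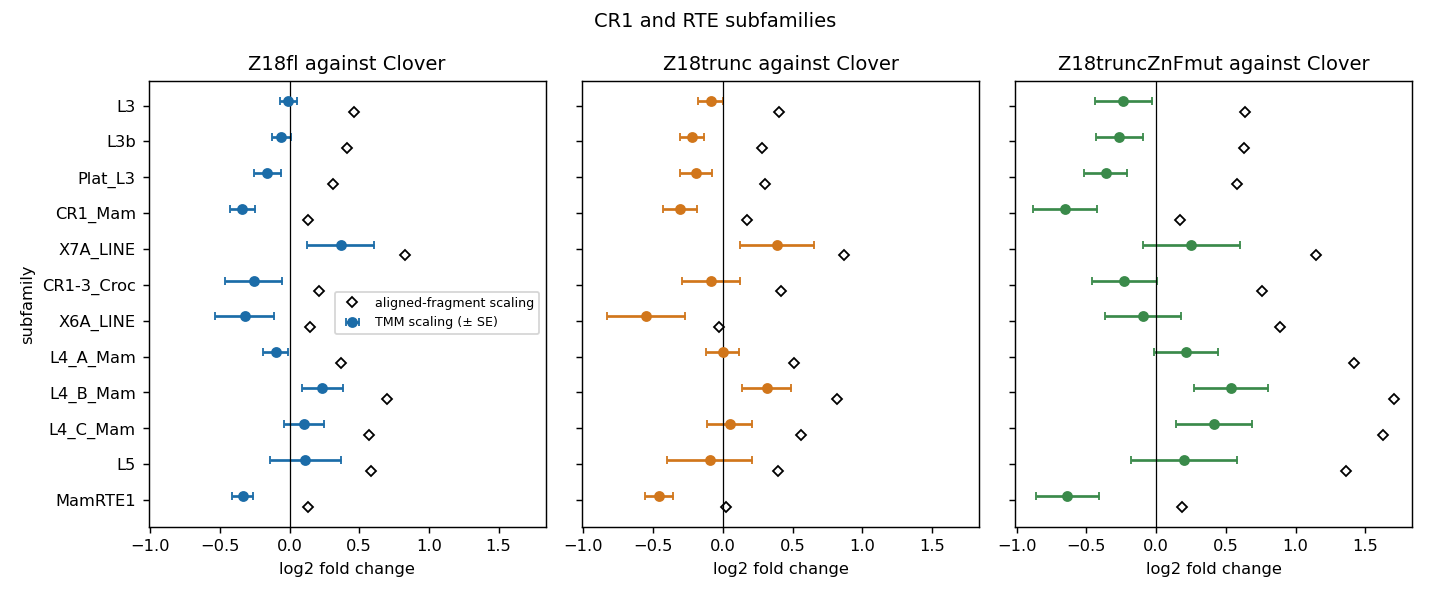
Log2 fold change against Clover (horizontal axes) of 12 CR1 and RTE subfamilies by TMM scaling (filled circles, bars give the SE) and by library sizes from aligned fragments (open diamonds). MamRTE1 lies at -0.34 and -0.46 in Z18fl and Z18trunc by TMM and at 0.13 and 0.03 by aligned fragments.

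Single elements were tested across all loci of the 6 classes. Few CR1 and RTE copies had enough counts: 163 of 21841 entered at least 1 of the 5 comparisons, and those tested in Z18fl against Clover held 39.0% of the CR1 and RTE counts. A copy passed the filter through the libraries in which it was high. Of the 12 copies called higher in Z18fl against Clover, 7 had no Clover library at the level the filter asks for, and of the 32 called lower, 4 had no Z18fl library at that level. Most of the tested copies lay in exons, in contrast to all listed copies. Of 101 tested in Z18fl against Clover, 62 were exonic, 34 of these in the 3′ untranslated region and 11 in the coding sequence of the canonical transcript, and 27 were intronic.

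In Z18fl against Clover, 12 of 101 copies were higher, beside 28.3% of all tested loci, and 32 were lower, beside 24.6% of all tested loci. The median log2 fold change was -0.44, against 0.01 over all loci, 1.03 for L1, -0.52 for L2 and -0.36 for MIR. With aligned fragments as library sizes the counts were 18 higher and 18 lower and the median was -0.08. Over all 12098 loci 4349 were then higher and 1782 lower, and their median moved to 0.37. Leaving out any 1 Clover library gave 23 to 25 higher copies, and a single fit of all 12 libraries gave 19. Without the filter on low counts 25 were higher and 9 lower, and the median was 1.67. That median is over every copy with a count in these libraries, not over the 101, so the medians cannot be set side by side. By place, 6 of the 12 higher copies were intronic and 6 exonic, and 24 of the 32 lower copies were exonic, 18 of them in 3′ untranslated regions. Over all loci 413 of 3424 higher and 1521 of 2981 lower were exonic. Intronic CR1 and RTE copies had a median of 0.18 and exonic copies one of -0.47. The medians in introns and exons were 0.64 and -0.62 for all loci, 1.51 and -0.14 for L1, -0.01 and -0.63 for L2, and 0.13 and -0.62 for MIR, so a lower median in exons was shared by these families. The 32 lower copies lay in 25 genes, except for 1 between genes.

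In Z18trunc against Clover 3 of 104 copies were higher, beside 22.5% of all tested loci, and 27 were lower, beside 13.4%. The median was -0.42. DESeq2 called 1 higher and 13 lower, and without Z18trunc replicate 1, 2 or 3 the number of lower copies was 12, 12 and 17. All 3 higher copies were intronic and 19 of the lower ones exonic. Of the 104 tested copies 64 were exonic. Over all loci 2052 of 2969 higher ones were intronic and 992 of 1773 lower ones exonic. In Z18truncZnFmut against Clover 0 of 83 were higher, beside 12.3%, and 10 were lower, beside 4.83%. Of these 10 copies 8 were exonic, beside 52 of the 83 tested copies and 351 of 490 lower ones over all loci. At an unadjusted p under 0.05 in edgeR, 24 of the 83 passed, beside 2909 of all 10152 loci. DESeq2 called 0 higher and 8 lower. The number of lower copies was 4 without Z18truncZnFmut replicate 1, without its replicate 3, or without Clover replicate 2. Without Clover replicate 1 the number was 6. By aligned fragments 6 were higher and 7 lower in Z18trunc, beside 3701 and 504 of all 13204 loci. By that scaling 0 were higher and 2 lower in Z18truncZnFmut, beside 1488 and 116 of all 10152 loci. These comparisons share the Clover libraries. Side by side, 9 copies were lower in all 3, of 76 tested in all 3, and 21 were lower in both Z18fl and Z18trunc. None was called in opposite directions. The matching shares over all loci are not given, so these shared calls are only a description.

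**Figure D3:**
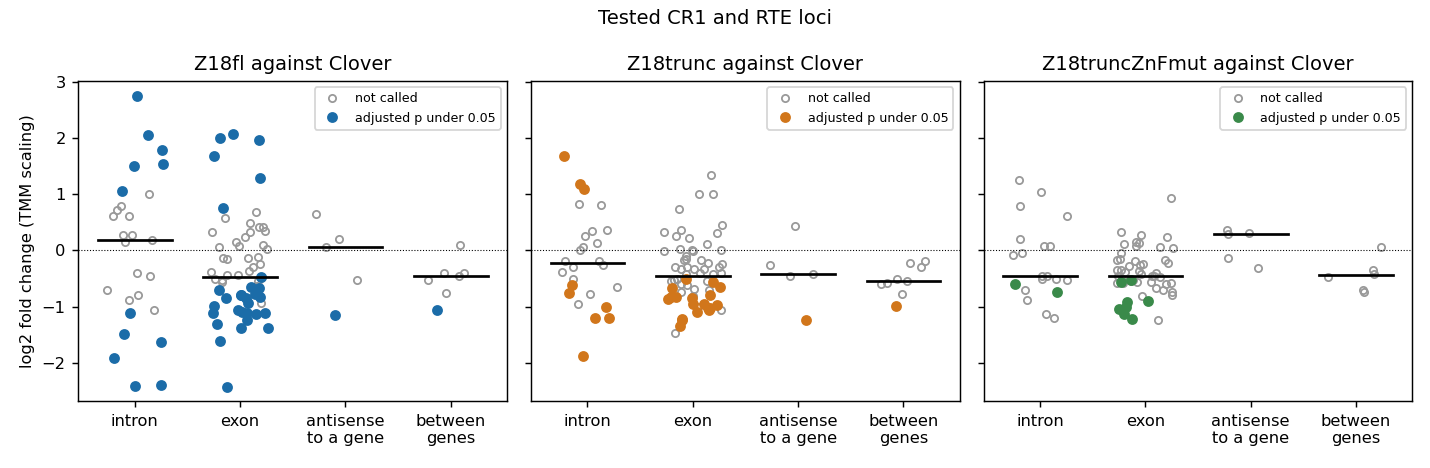
Log2 fold change against Clover by TMM scaling (vertical axes) of each tested CR1 or RTE element, grouped by its place relative to genes, with filled points for edgeR adjusted p under 0.05, open points for the rest, and bars for medians. In Z18fl the median is 0.18 in introns and -0.47 in exons, and all of the higher points lie in introns or exons.

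The largest log2 fold change with Z18fl among called copies with a mean of at least 20 counts was at the 86-base L3 copy in an intron of MTSS2, which encodes a membrane-bending actin regulator. It had 4, 1 and 0 counts with Clover, 32, 15 and 16 with Z18fl, 8, 9 and 15 with Z18trunc, and 9, 6 and 4 with Z18truncZnFmut. Every Z18fl library lay above every Clover library, which was a condition for naming the copy. The log2 fold change was 2.76 (SE 0.69), or 4.33 without Clover replicate 1. As no Clover library was at the level of the filter, the copy entered through Z18fl alone, and its values are a description. It was not tested against Clover in the other constructs, where it did not pass the filter on low counts.

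An L3 copy in POM121 (chr7:72928775-72929489), which encodes a nuclear pore protein, had 3, 6 and 1 counts in Clover and 19, 27 and 30 in Z18fl, a log2 fold change of 2.05 (SE 0.52). It lay in an intron, and POM121 has near-identical copies in the genome, so its assigned reads are uncertain. In AATF, whose product acts in transcription and ribosome production, an L3 copy (chr17:36949771-36950189) in an exon of a transcript other than the canonical one had 7, 0 and 2 counts in Clover and 24, 21 and 24 in Z18fl (log2 fold change 2.06, SE 0.59, or 3.56 without Clover replicate 1). A MamRTE1 copy in a like exon of ING4 (chr12:6655641-6656156), which encodes a chromatin reader, had 3, 5 and 1 and then 19, 23 and 24 counts (log2 fold change 2.0, SE 0.52). For these copies the libraries of Clover and Z18fl did not overlap in CPM, which was a condition for naming them. They too entered through Z18fl alone, so that their fold changes are a description.

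In the coding sequence of HSPA8, the constitutive Hsp70 chaperone, the copy annotated as MamRTE1 and printed above differed between the constructs. It had 5.84, 5.03 and 6.11 CPM with Clover, 10.5, 14.0 and 12.1 with Z18fl, 7.23, 7.40 and 7.22 with Z18trunc, and 5.75, 3.85 and 4.62 with Z18truncZnFmut. Z18fl stood above the other groups in every library. The log2 fold change was 0.75 for Z18fl against Clover (SE 0.16, edgeR adjusted p = 0.000839) and -0.82 for Z18trunc against Z18fl (SE 0.15, adjusted p = 0.00263). For Z18trunc against Clover it was 0.02 and was not called.

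The 3 copies that rose with Z18trunc against Clover were L3 elements in introns. The copy in ETFA, a subunit of the mitochondrial electron transfer flavoprotein (chr15:76193546-76194255), had 4, 1 and 8 counts in Clover and 36, 26 and 13 in Z18trunc, a log2 fold change of 1.68 (SE 0.56, edgeR adjusted p = 0.0233). The copy in the gene ENSG00000248837 (chr4:23070728-23071264) had 8, 5 and 9 counts in Clover and 30, 28 and 31 in Z18trunc, and a log2 fold change of 1.19 (SE 0.39, adjusted p = 0.023). The copy in FAM178B (chr2:96909173-96910797) had 7, 7 and 6 and then 30, 23 and 23 counts, and a log2 fold change of 1.09 (SE 0.41, adjusted p = 0.0461). The copies in ETFA and ENSG00000248837 were also higher in Z18fl, by 1.54 and 1.06. DESeq2 did not call the copies in ENSG00000248837 and FAM178B in Z18trunc (adjusted p = 0.0653 and 0.12). The copy in ETFA was not called without Clover replicate 1 or 2 (edgeR adjusted p = 0.0717 and 0.105), and that in ENSG00000248837 was not called without Clover replicate 1 or 2 or Z18trunc replicate 3 (adjusted p = 0.0572, 0.0981 and 0.0541). The copy in FAM178B was not called when any single library was left out.

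The largest fall among copies with a mean of at least 20 counts was in the 3′ untranslated region of TRAF1, an adaptor of tumour necrosis factor receptors. Its L3 copy (chr9:120904419-120904567) had 2.52, 3.33 and 2.43 CPM with Clover, 0.475, 0.828 and 0.662 with Z18fl, 1.93, 0.868 and 1.65 with Z18trunc, and 2.03, 1.32 and 1.32 with Z18truncZnFmut. All 3 constructs lay below Clover in every library, which was a condition for naming the copy in each, and Z18fl lay lowest. The log2 fold change against Clover was -2.43 (SE 0.29, edgeR adjusted p = 3.33e-06), -1.24 (SE 0.29, adjusted p = 0.00203) and -1.04 (SE 0.27, adjusted p = 0.00815). The fall remained called in Z18fl by aligned fragments, at -2.07, but not in Z18truncZnFmut (adjusted p = 0.0547), where it was not called without Clover replicate 2 either (adjusted p = 0.0565).

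Intronic copies fell as well. The L3 copy in ETV6, a transcriptional repressor (chr12:11832500-11833128), had 1.68, 1.17 and 0.679 CPM in Clover and 0.302, 0.174 and 0.350 in Z18fl, a log2 fold change of -2.41 (SE 0.45). It entered the test through Clover alone. In ABLIM3, which encodes an actin-binding protein, an L3 copy (chr5:149204020-149204542) had 4.02, 3.16 and 4.70 CPM with Clover, 1.53, 0.915 and 1.58 with Z18fl and 2.52, 1.65 and 2.37 with Z18trunc. Its log2 fold change was -1.92 (SE 0.24, edgeR adjusted p = 4.96e-06) and -1.20 (SE 0.23, adjusted p = 0.000357). The L3b copy in NECTIN3, an adhesion protein, had 3.18, 3.10 and 2.55 CPM with Clover, 1.30, 1.13 and 1.60 with Z18fl, 2.40, 2.44 and 2.49 with Z18trunc, and 2.65, 1.97 and 1.45 with Z18truncZnFmut. It was the only CR1 or RTE copy higher in Z18trunc than in Z18fl (log2 fold change 0.79, SE 0.22, adjusted p = 0.0381), but DESeq2 did not call it (adjusted p = 0.0745), nor did edgeR with the replicate block (adjusted p = 0.0693), with a single fit (adjusted p = 0.102) or with any single library left out. Its fall with Z18truncZnFmut was called with all libraries (-0.75, edgeR adjusted p = 0.0449) but not without replicate 3 (adjusted p = 0.2).

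The 4 MamRTE1 copies along the 3′ untranslated region of ZKSCAN1 share a host transcript and are not independent. The first (chr7:100034544-100034907) had 13.1, 11.6 and 12.6 CPM with Clover, 6.56, 9.37 and 9.11 with Z18fl, 7.70, 10.0 and 6.48 with Z18trunc, and 9.72, 10.0 and 9.13 with Z18truncZnFmut. Clover was highest in every library. The log2 fold changes were -0.93, -0.97 and -0.56 (edgeR adjusted p = 7.29e-05, 5.29e-05 and 0.015). All 4 were lower in Z18fl and 3 in Z18trunc, with log2 fold changes down to -1.10 for the copy at chr7:100036118-100036221.

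Among called copies with a mean of at least 20 counts, those in SYNPO and THSD4 had the largest falls with Z18truncZnFmut. The L3 copy in the 3′ untranslated region of SYNPO, an actin-associated protein (chr5:150658060-150658197), had 1.56, 1.70 and 1.41 CPM in Clover and 0.910, 0.940 and 0.454 in Z18truncZnFmut (log2 fold change -1.23, SE 0.37, edgeR adjusted p = 0.0209). Another L3 copy, in the 3′ untranslated region of THSD4, an extracellular matrix protein (chr15:71779395-71779591), had 1.86, 2.98 and 1.70 CPM and then 1.32, 1.17 and 0.950 (log2 fold change -1.13, SE 0.31, adjusted p = 0.0128). Without Z18truncZnFmut replicate 3 neither was called (adjusted p = 0.099 and 0.0548), nor without its replicate 1 (0.0593 and 0.0502) or Clover replicate 2 (0.0632 and 0.106).

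Among the 5 copies with the highest mean CPM, with no division by length, 3 lay in coding sequence. The L3 copy in RELA, the p65 subunit of NF-kappaB, had 15, 19.5 and 19.0 CPM in Clover and 13.4, 13.9 and 11 in Z18fl (log2 fold change -0.84, SE 0.15, edgeR adjusted p = 0.000208). In TRIM25, a ubiquitin ligase of antiviral signalling, the L3 copy (chr17:56904300-56904405) had 11.2, 11.3 and 10.2 CPM in Clover and 15.7, 18.1 and 16.0 in Z18fl. The groups did not overlap in CPM, but by TMM the log2 fold change of 0.24 was not called (adjusted p = 0.132). Reads over these copies include those of the host messenger RNA, and the files do not tell them apart.

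**Figure D4:**
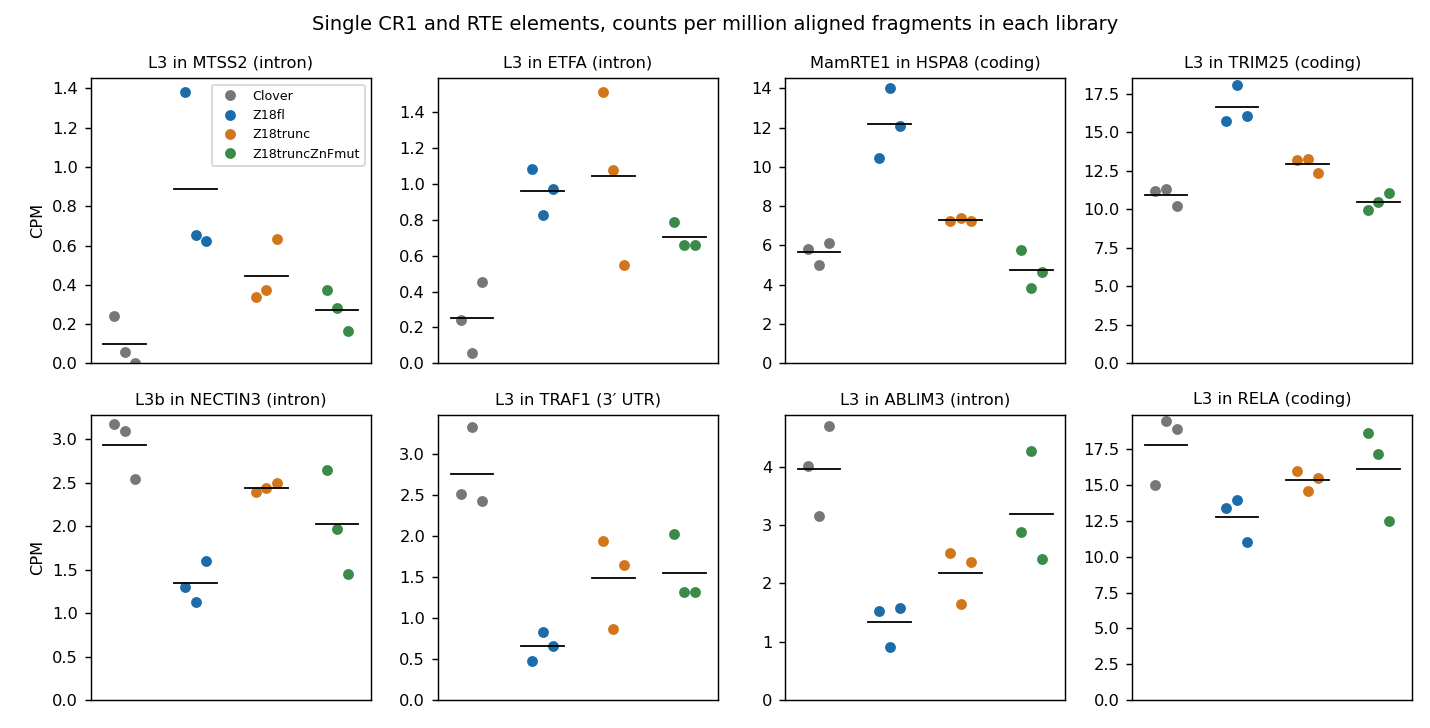
CPM (vertical axes, from 0) of 8 single CR1 and RTE elements, with a point for each library and a bar for each group mean. The Z18fl mean is the highest in MTSS2, HSPA8 and TRIM25 and the lowest in TRAF1, ABLIM3, NECTIN3 and RELA.

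Between the constructs few copies differed. In Z18trunc against Z18fl, 1 of 150 was higher, beside 2.62% of all tested loci, and 4 were lower, beside 3.13%. Beside the copy in HSPA8, the lower copies included an L3b in the 3′ untranslated region of TUFM, a mitochondrial translation factor, at -1.49 and an L3 antisense to LINC02885 at -3.09, both named after their values were seen and both entered through Z18fl alone. In Z18truncZnFmut against Z18trunc 0 of 113 were called by edgeR and 0 by DESeq2, beside 0.368% of all tested loci higher and 0.351% lower. At an unadjusted p under 0.05 in edgeR, 11 of the 113 passed, beside 2417 of all 16833 loci. The intron share of CR1 and RTE counts differed by -2.70 percentage points between Z18truncZnFmut and Z18trunc, and the libraries overlapped (exact permutation p = 0.5).

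The tested copies were also described by sequence motifs that the choice of members did not use. The motif AATAAA, searched on the element strand, was in 15.8% of the 101 copies tested in Z18fl against Clover, against 42.7% of all tested loci and 81.6% of L1, whose copies are longer. Per kilobase it occurred 0.720 times in the tested CR1 and RTE copies, 1.77 times in all tested loci, 2.26 times in L1, 0.591 times in L2 and 0.608 times in MIR. A run of 5 T bases (TTTTT) occurred 0.884 times per kilobase, against 0.633 over all tested loci, 1.51 in L2 and 0.643 in MIR. Higher and lower copies had median lengths of 303 and 134.5 bases and median T contents of 22.6% and 25.4%, given as a description of 12 and 32 copies.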

How the data were processed

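PAR-CLIP libraries of 4 constructs (3 each) were grouped by their labels, and nothing in the labels says that replicates were separate cultures, so p-values measure the spread between these libraries. The authors trimmed reads (cutadapt 4.6 in the submitters' processing notes), mapped them to hg38 and assigned them to repeat elements with SQuIRE. Its version was not given in the sources used here. The deposited expected counts are uniquely mapping reads plus a share of multimapping reads per element and strand. The deposited counts of uniquely mapping reads served as an alternative, and the deposited count of aligned fragments as the depth. A deposited percent, the assigned share of all reads that touched an element, was read only as a description. Repeat reads that map to many copies can be misplaced by such sharing.

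Expected counts were rounded to whole numbers and tested with edgeR 4.0.16 in R 4.3.3 (quasi-likelihood test, TMM, filterByExpr with a minimum count of 10), with Benjamini-Hochberg adjustment over all loci or subfamilies of 6 classes and a threshold of 0.05. DESeq2 1.42.0 was an alternative. Single values per library were compared by the two-sided exact permutation test. An element was exonic when at least 50% of it lay in exons of GENCODE 44 on its strand. The scripts were tested on simulated data. Named loci were the called ones of largest change whose groups did not overlap, with a mean of at least 20 counts in the higher group, and the 5 with the highest mean CPM; 1 locus is not reported here. Of the sequences, that in MTSS2 was chosen by rule and the other 3 after values were seen. The members and lists were chosen with earlier results of these data known.

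Libraries of Z18truncZnFmut and Z18trunc with the same replicate number deviated together over 526 subfamilies (r = 0.60, 0.32 and 0.69). For replicate 2 a library of another number correlated more (r = 0.37), so the check did not settle a pairing. The main tests were run unpaired, with the replicate block as an alternative. No call between them changed with the block.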

Additional observations from a re-analysis of the deposited data

Results flagged for a closer look

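The constructs differed from each other, by edgeR's test of Z18trunc against Z18fl over all loci, at CR1 and RTE copies with at least 20 counts in NECTIN3 and HSPA8. The log2 fold change was 0.79 for the L3b copy in NECTIN3 and -0.82 for the MamRTE1 copy in HSPA8. The groups did not overlap in CPM at either copy, but that was a condition for naming copies by their change and adds no support. The call in NECTIN3 was lost with DESeq2 (adjusted p = 0.0745), with the replicate block, with a single fit of all 12 libraries, and when any single library was left out. That in HSPA8 was lost without the filter on low counts (adjusted p = 0.105).

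The level of reads on the strand opposite to CR1 and RTE elements was not itself compared between groups, and these reads entered only the comparison of strand shares and the counts on either strand. Their mean in Z18fl was 456 CPM, above each Clover library, where the mean was 421 ± 18.8 (SD, n = 3). The Z18fl libraries lay at 444, 461 and 461, and Clover libraries at 443, 410 and 411. This difference was not tested.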

How the results depend on the processing

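With aligned fragments as library size, the numbers of lower copies were 18, 7 and 2 in Z18fl, Z18trunc and Z18truncZnFmut against Clover and 2 in Z18trunc against Z18fl, and of higher copies 6 in Z18trunc and 2 in Z18trunc against Z18fl. Over all loci 1782 of 12098, 504 of 13204 and 116 of 10152 were lower against Clover in these constructs. In Z18trunc against Z18fl 385 of 19413 loci were lower and 504 higher, and in Z18trunc against Clover 3701 were higher. Subfamilies called higher were then 11 in Z18fl and 7 in Z18trunc, with 0 lower in both, beside 494 of 915 and 418 of 925 of all subfamilies higher. L3 turned to 0.46, 0.41 and 0.64, MamRTE1 to 0.13, 0.025 and 0.18 and CR1_Mam to 0.13, 0.18 and 0.17 in the 3 constructs, and the median of the copies in Z18truncZnFmut against Z18trunc to -0.091. Without a filter on low counts, 25 copies were higher and 9 lower in Z18fl, 6 and 0 in Z18trunc, 0 lower in Z18truncZnFmut, and 0 and 1 in Z18trunc against Z18fl. The medians, now over every copy with a count in the libraries compared, were 1.67, 1.72 and 1.71. L3 in Z18fl turned to 0.0092, and 1 subfamily was higher in Z18fl. With reads on either strand, 20 copies were higher and 50 lower in Z18fl, 7 were higher in Z18trunc and 1 in Z18truncZnFmut, and 2 were higher and 7 lower in Z18trunc against Z18fl. Subfamilies were then 1 higher and 4 lower in Z18fl and 6 lower in Z18trunc, the CPM differences 159 and 149, the intron shares higher by 7.36 and 6.10 percentage points, the ratios to L2 -0.12 and -0.17, the ratio to MIR in Z18trunc -0.047, and the median in Z18truncZnFmut against Z18trunc -0.020. DESeq2 called 1 copy higher and 13 lower in Z18trunc and 0 higher in Z18trunc against Z18fl. With uniquely mapping reads 1 copy was higher in Z18trunc, 1 in Z18truncZnFmut and 3 in Z18trunc against Z18fl, and 2 subfamilies were lower in Z18trunc. With all 12 libraries in a single fit 19 copies were higher in Z18fl, 1 higher and 23 lower in Z18truncZnFmut, and 0 and 1 in Z18trunc against Z18fl. Subfamilies were then 1 higher and 0 lower in Z18fl and 0 lower in Z18trunc. With the copies in ZKSCAN1 left out, a setting chosen after seeing the data, 1 subfamily was lower in Z18fl and 0 in Z18trunc. With aligned fragments as well, 12 and 8 were higher and 0 lower, and MamRTE1 turned to 0.45, 0.29 and 0.42 in the 3 constructs. Over elements with at most 100 counts the ratio to L1 in Z18truncZnFmut differed by -0.53. The cause of these changes was not tested.

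Leaving out 1 library gave 8 to 25 higher and 23 to 39 lower copies in Z18fl (25 without Clover replicate 1), 1 to 3 and 12 to 23 in Z18trunc, 4 to 8 lower in Z18truncZnFmut, and 0 to 1 and 1 to 4 in Z18trunc against Z18fl. Subfamilies ranged from 0 to 2 higher in Z18fl, from 0 to 1 higher and 1 to 3 lower in Z18trunc, from 0 to 2 lower in Z18truncZnFmut and from 0 to 1 lower in Z18trunc against Z18fl. L3 in Z18fl ranged from -0.023 to 0.015, and was above 0 without Clover replicate 2 (0.0078) or Z18fl replicate 2. CPM differences ranged over 117 to 140, 82.9 to 123 and 67.9 to 305, ratios to L1 over -0.62 to -0.46, -0.98 to -0.84 and -0.73 to -0.62, and intron shares over 11.1 to 12.6, 8.31 to 9.84 and 4.00 to 8.60 percentage points.

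With the replicate block, 11 copies were higher and 30 lower in Z18fl, 2 and 19 in Z18trunc, 0 and 10 in Z18truncZnFmut, and 0 and 4 in Z18trunc against Z18fl. In those comparisons same-numbered libraries correlated at -0.36 to 0.09, and the labels do not say whether they share more than a number. At this depth 163 of 21841 copies could be tested.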
